A study of Mus musculus with 40 samples.

Results

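Of the 224 TaqMan assays measured by quantitative PCR in mouse colonic mucosa, 4 are described here: Mm00448160_m1 and Mm00437040_m1, which were higher in colonised than in germ-free mucosa, and Mm00484138_m1 and Mm00492427_m1, which were lower. They were chosen from the measured values of these same samples, because each colonised group's mean was shifted in 1 direction from the germ-free mean. The differences to germ-free are therefore given as a description, with no test. All of them share the same germ-free samples. The sources used here do not pair the assay IDs with genes, so the 4 are named by ID and neither their functions nor their sequences are given.

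The series holds 40 samples of colonic mucosa in 4 groups of 10. The control group came from germ-free mice, raised without any microbes. The mono-associated groups were colonised with a single bacterial strain, Escherichia coli CEC or Escherichia coli Nissle, for 21 days. The fourth group is conventional (CV in the labels), for which no length of colonisation is stated. The sources used here give no mouse strain, age or sex. The series' design text speaks of RNA pooled in equal amounts across mice, while separate samples are listed, so whether a sample is 1 mouse is not settled, and the p-values speak for the scatter of the listed samples alone, which could be technical.

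A germ-free colon meets bacteria only when they are introduced, and comparing it with a colon that holds 1 strain or a whole community asks which transcripts of the mucosa depend on microbes. Nissle is a strain used as a probiotic in people, and a conventional microbiota is a community of many species. A TaqMan assay follows 1 transcript with a fluorescent probe, and its threshold cycle (Ct) is the cycle at which the signal crosses a set level, so a lower Ct stands for more template. Relative expression is given here as a median minus the Ct of the assay, the median being that of all Ct values of the sample in the 203 assays without an undetermined well. It is on a log2 scale, 1 unit being 1 cycle. The Ct of different assays depends on their primers, so levels are compared between groups and not between assays.

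All 160 wells of the 4 assays held a measured Ct, between 19.76 and 29.15 cycles, so none was undetermined and none had been filled in before deposit. The median Ct of a sample, from which the Ct of every assay is subtracted, was lowest in conventional samples, at 21.96 ± 0.288 cycles (mean ± SD, n = 10), against 22.30 ± 0.488 in Nissle, 22.47 ± 0.309 in germ-free and 22.72 ± 0.838 in CEC samples. CEC replicate 6 stood apart from the rest of its group in 2 of the 4 assays, and the CEC differences of these 2 assays are given with and without it.

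Mm00448160_m1 was higher in CEC, Nissle and conventional mucosa than in germ-free mucosa, by about as much in each once CEC replicate 6 was left out. In germ-free mucosa its relative expression ran from -6.77 through a median of -4.98 to -4.29, in CEC from -4.36 through -3.10 to 2.51, in Nissle from -3.43 through -2.78 to -2.18, and in conventional samples from -4.08 through -2.96 to -2.11. Every Nissle and every conventional sample lay above every germ-free sample. Over all assays tested, ranges separate in this direction were found for 0.930% in Nissle and 0.935% in conventional samples, a contrast the choice of these assays had already used. Among CEC samples, 9 of 10 lay above the germ-free range, and replicate 4 overlapped it narrowly.

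The group means of Mm00448160_m1 were -5.26 ± 0.821 for germ-free (SD, n = 10), -2.44 ± 1.88 for CEC, -2.85 ± 0.438 for Nissle and -2.93 ± 0.691 for conventional mucosa. The differences to germ-free were 2.82 for CEC, 2.41 for Nissle and 2.33 for conventional mucosa, each with a standard error of 0.48, or 7.05-fold, 5.31-fold and 5.01-fold. The order of the colonised groups turned on 1 sample. CEC replicate 6 lay at 2.51, while the next highest CEC sample lay at -1.76. Without it the CEC mean was -2.99 ± 0.766 (SD, n = 9), just under the means of the other colonised groups, and CEC was 4.82-fold above germ-free. With samples weighted by their quality it was 3.87-fold above.

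Mm00437040_m1 was higher after either single strain, and less so in conventional mucosa. Its relative expression ran from -6.14 through a median of -4.62 to -3.84 in germ-free, from -4.56 through -3.39 to -2.34 in CEC, from -3.85 through -3.46 to -1.89 in Nissle, and from -4.66 through -4.45 to -3.26 in conventional samples. In CEC 8 of 10 samples and in Nissle 9 of 10 lay above the germ-free range. In conventional mucosa only 2 of 10 did, replicates 7 and 10, and replicate 1 lay below the germ-free mean.

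For Mm00437040_m1 the mean was -4.66 ± 0.613 for germ-free (SD, n = 10), -3.38 ± 0.663 for CEC, -3.24 ± 0.587 for Nissle and -4.20 ± 0.502 for conventional mucosa. CEC was 2.41-fold and Nissle 2.66-fold above germ-free, with log2 differences of 1.27 and 1.41 and a standard error of 0.26. Conventional samples were 1.37-fold above, with a difference of 0.45 and the same standard error. Without germ-free replicate 22, the lowest sample at -6.14, that difference was 0.29. A shift shared by all colonised groups was thus less clear for this assay in conventional mucosa than in CEC or Nissle.

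Mm00484138_m1 was lower in each colonised group, with wide spread and overlapping ranges. Germ-free samples ran from -2.23 through a median of 0.12 to 2.31, CEC samples from -3.22 through -2.11 to 3.36, Nissle samples from -3.28 through -2.40 to -0.70, and conventional samples from -2.77 through -1.92 to -0.69. Below the germ-free range lay 5 of 10 CEC, 5 of 10 Nissle and 3 of 10 conventional samples. The germ-free range was stretched by replicate 20 at -2.23, while the next lowest germ-free sample lay at -0.73. All Nissle and conventional samples lay below the germ-free mean, as did 9 of 10 CEC samples.

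Mean values of Mm00484138_m1 were 0.17 ± 1.23 for germ-free (SD, n = 10), -1.56 ± 1.90 for CEC, -2.21 ± 0.890 for Nissle and -1.76 ± 0.767 for conventional mucosa. Against germ-free the assay was 3.31-fold lower in CEC, 5.20-fold lower in Nissle and 3.81-fold lower in conventional samples. The log2 differences were -1.72, -2.38 and -1.93, with a standard error of 0.55. The exception in CEC was again replicate 6, at 3.36, above every germ-free sample, while the next highest CEC sample, replicate 8, lay at -0.48. Without replicate 6 the CEC mean was -2.11 ± 0.829 (SD, n = 9), 4.83-fold below germ-free, and with sample quality weights it was 5.13-fold below.

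Mm00492427_m1 had the smallest differences to germ-free in CEC and Nissle and, pooled over the groups, the narrowest spread of the 4 assays. Within Nissle its SD, 0.531, was above the 0.438 of Mm00448160_m1. Its relative expression ran from 1.13 through a median of 1.61 to 1.93 in germ-free, from 0.34 through 0.83 to 1.48 in CEC, from 0.10 through 0.82 to 1.80 in Nissle, and from 0.55 through 1.03 to 1.46 in conventional samples. Below the germ-free range lay 8 of 10 CEC, 7 of 10 Nissle and 6 of 10 conventional samples. Of the 30 colonised samples, 29 lay below the germ-free mean, Nissle replicate 7 being the exception.

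The means of Mm00492427_m1 were 1.57 ± 0.278 for germ-free (SD, n = 10), 0.87 ± 0.311 for CEC, 0.89 ± 0.531 for Nissle and 1.04 ± 0.288 for conventional mucosa. The assay was 1.63-fold lower in CEC, 1.61-fold lower in Nissle and 1.45-fold lower in conventional samples, with log2 differences of -0.70, -0.68 and -0.53 and a standard error of 0.17. Nissle samples varied more than the other groups. Their extremes, replicate 9 at 0.10 and replicate 7 at 1.80, lay below and above every other colonised sample.

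**Figure D1:**
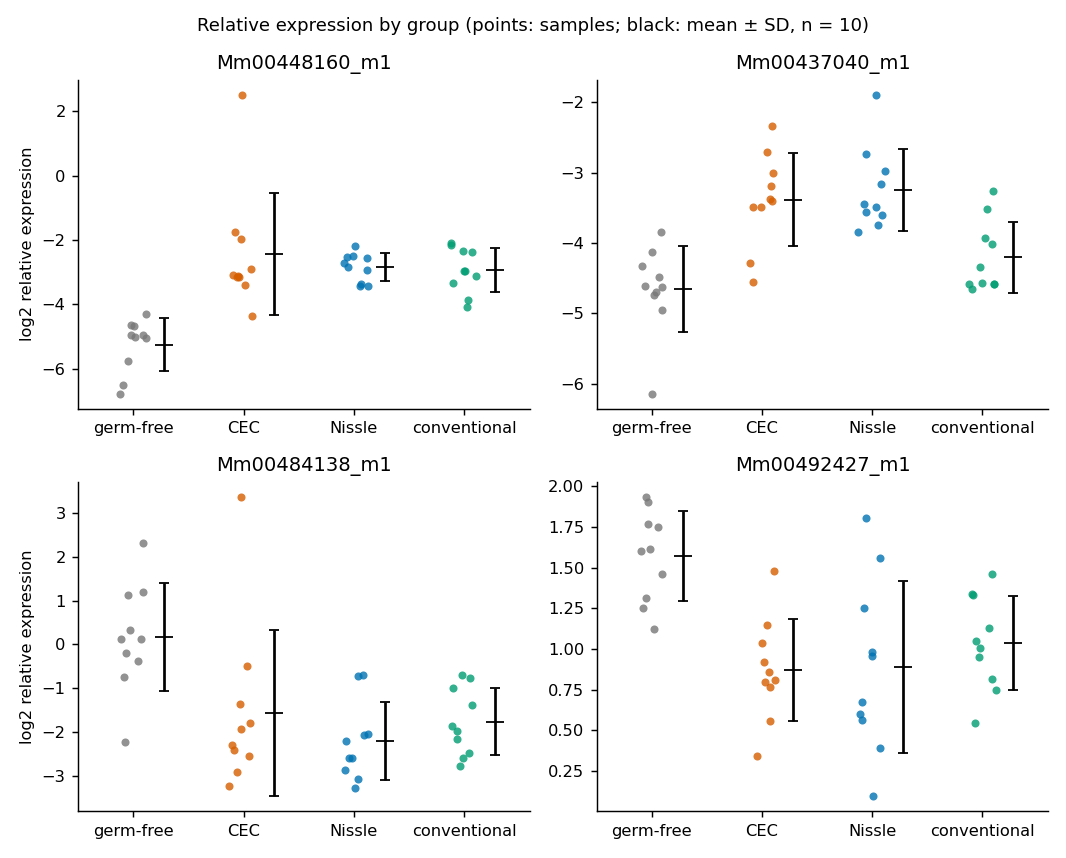
Relative expression (log2 units, sample median Ct minus assay Ct) of the 4 assays in each sample, with 10 samples per group; points are samples, black bars the mean ± SD, and each panel has its own vertical scale. CEC replicate 6 stands alone at 2.51 for Mm00448160_m1 and at 3.36 for Mm00484138_m1, and 8 of 10 conventional samples lie within the germ-free range for Mm00437040_m1.

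The choice of the assays largely fixes how many of them lie on the colonised side in a sample, so the counts by sample are a description only. In 27 of the 30 colonised samples all 4 assays lay on the colonised side of the germ-free mean, and in the other 3 (CEC replicate 6, Nissle replicate 7 and conventional replicate 1) 3 assays did. Among the germ-free samples themselves 2 of 10, replicates 11 and 31, had all 4 on that side. Past the whole germ-free range the count was lower. In 7 colonised samples all 4 assays lay past it (4 CEC, 2 Nissle and 1 conventional sample), in 11 samples 3 did, in 9 samples 2 did and in 3 samples, all conventional, only 1 did.

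The size of these differences depended on the normalizer most in conventional samples, whose median Ct was the lowest of the 4 groups. For Mm00492427_m1 the difference between conventional and germ-free samples was -0.53 with the panel median, -0.27 with the mean of the 10 most stable assays (those kept by the geNorm ranking, whose Ct differences to each other varied least) and -0.03 in raw Ct with the sign turned. For Mm00437040_m1 it was 0.45, 0.71 and 0.96 in the same order. For Mm00448160_m1 it was 2.33, 2.59 and 2.83, and for Mm00484138_m1 -1.93, -1.67 and -1.42. None of the 12 differences to germ-free changed its sign under the normalizers tried. The part of the lower median Ct of conventional samples in these values was not tested. In mucosa as a whole, fewer cells of a type and less RNA per cell cannot be told apart.

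**Figure D2:**
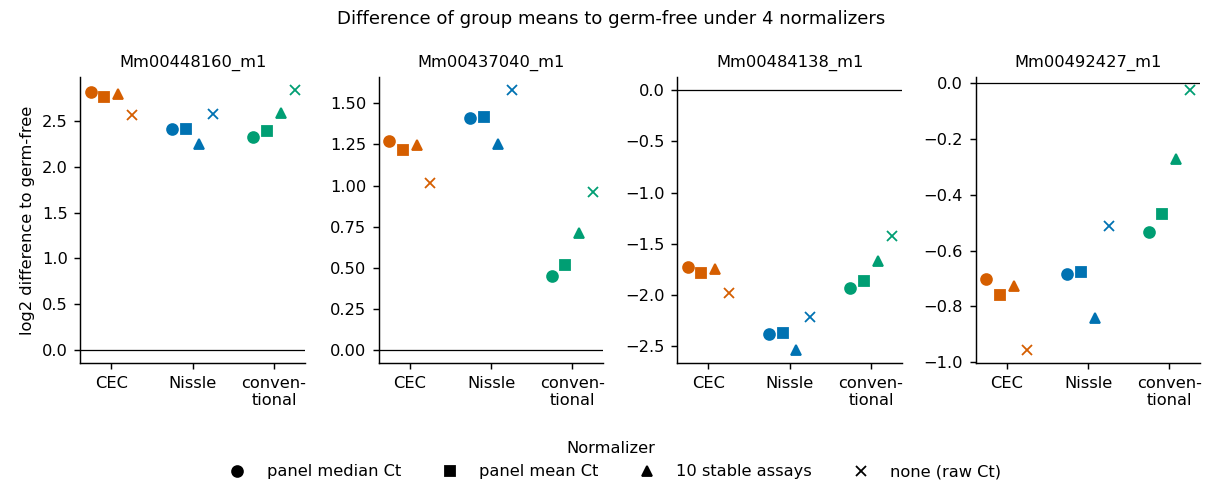
Log2 difference of each colonised group's mean to the germ-free mean for the 4 assays under 4 normalizers (panel median Ct, panel mean Ct, 10 stable assays, none), with colours for groups and symbols for normalizers. Symbols spread most for conventional samples, where Mm00492427_m1 runs from -0.53 to -0.03 and Mm00437040_m1 from 0.45 to 0.96.

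Setting the colonised groups against each other asks whether 1 strain, another strain and a full microbiota shifted the assays by the same amount. These contrasts were not used to choose the assays, although a common direction against germ-free was. CEC and Nissle did not differ detectably in any of the 4 assays: in limma's test 0 of 4 passed, 0 of 4 had an unadjusted p under 0.05, and the panel's share of calls was 3.27%. For Mm00448160_m1 CEC minus Nissle was 0.41 (95% interval -0.56 to 1.38; limma, adjusted p = 0.67) and for Mm00484138_m1 it was 0.65 (-0.47 to 1.77; adjusted p = 0.533). Without CEC replicate 6 these differences were -0.14 and 0.11. The intervals were narrower for Mm00437040_m1, at -0.14 (-0.67 to 0.40; adjusted p = 0.827), and for Mm00492427_m1, at -0.02 (-0.36 to 0.33; adjusted p = 0.965). A difference between the strains of 1 log2 unit was thus outside the interval for Mm00437040_m1 and Mm00492427_m1, but inside it for the other 2 assays. Those 2 are the assays in which CEC replicate 6 stood apart, and their intervals include it. Without it their pooled SD within groups was 0.692 in place of 1.11 for Mm00448160_m1, and 0.949 in place of 1.27 for Mm00484138_m1.

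Mm00437040_m1 was the assay in which single strains and full microbiota differed. It was 1.77-fold higher in CEC than in conventional samples, a log2 difference of 0.82 (95% interval 0.28 to 1.36; limma, adjusted p = 0.0193), and 1.94-fold higher in Nissle, a difference of 0.96 (0.42 to 1.49; adjusted p = 0.00748). Of the 10 conventional samples, 8 lay below every Nissle sample and 5 below every CEC sample. Both passed with any 1 sample left out, at adjusted p of at most 0.0426 for CEC and 0.0203 for Nissle. Neither passed when the 10 stable assays served as normalizer and both differences were 0.54 (adjusted p = 0.0977 and 0.0787), or in raw Ct, where the differences were 0.06 and 0.62 (adjusted p = 0.891 and 0.298). Over its 53 alternatives the adjusted p ranged from 0.00225 to 0.891 for CEC and from 0.00347 to 0.298 for Nissle.

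The other 3 assays did not pass against conventional samples. For Mm00448160_m1 the difference was 0.49 for CEC (-0.48 to 1.47; limma, adjusted p = 0.506) and 0.08 for Nissle (-0.89 to 1.06; adjusted p = 0.92). For Mm00484138_m1 it was 0.20 for CEC (-0.92 to 1.32; adjusted p = 0.853) and -0.45 for Nissle (-1.57 to 0.67; adjusted p = 0.564). For Mm00492427_m1 it was -0.17 for CEC (-0.51 to 0.18; adjusted p = 0.521) and -0.15 for Nissle (-0.50 to 0.20; adjusted p = 0.532). Without CEC replicate 6 the difference for CEC was -0.06 for Mm00448160_m1 and -0.34 for Mm00484138_m1, so both signs turned. The call of Mm00492427_m1 also depended on the normalizer: it passed for CEC in raw Ct (-0.93, adjusted p = 0.0105) and for Nissle with the 10 stable assays (-0.57, adjusted p = 0.0475). So 1 of 4 assays passed in each of the comparisons with conventional samples, beside 25.7% of the panel for CEC and 26.0% for Nissle, and this share of the 4 assays is close to the background.

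**Figure D3:**
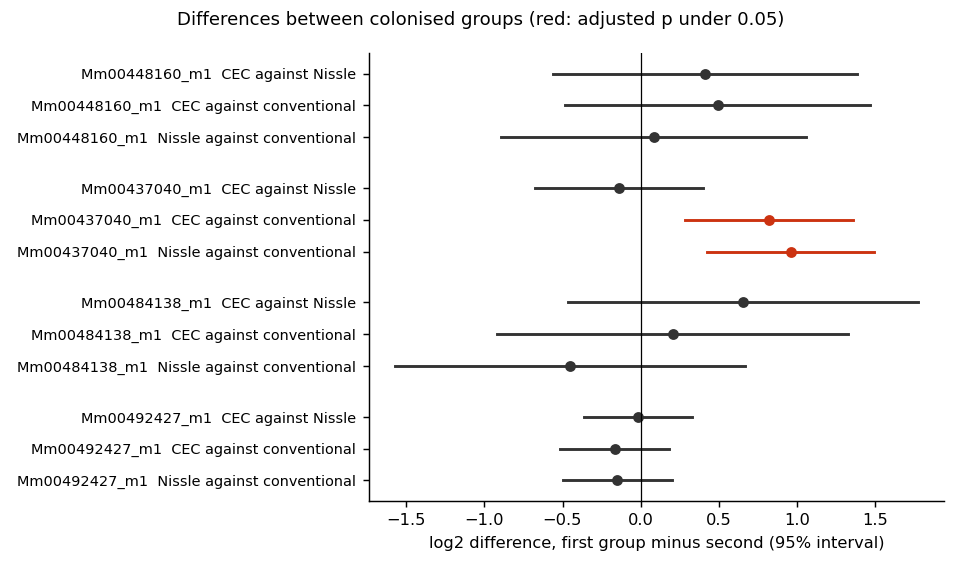
Log2 differences between colonised groups for the 4 assays, first group minus second, with points for the fitted difference and lines for its 95% interval (limma, 10 samples per group); red marks an adjusted p under 0.05. Only CEC and Nissle against conventional samples for Mm00437040_m1, at 0.82 and 0.96, are marked, and the intervals of Mm00484138_m1 are the widest.

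The assays differed in how much they varied between samples of 1 group. The pooled SD within groups was 1.27 log2 units for Mm00484138_m1, 1.11 for Mm00448160_m1, 0.594 for Mm00437040_m1 and 0.367 for Mm00492427_m1, against a median of 0.575 over the 203 assays without an undetermined well. From the smallest, these ranked 182, 174, 106 and 20 of 203. Without CEC replicate 6 the SD of Mm00484138_m1 was 0.949 and that of Mm00448160_m1 0.692, still above the panel's median of 0.547, at ranks 172 and 148. The small differences of Mm00492427_m1 were thus measured against 1 of the smaller spreads of the panel.

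Covariation was read from each sample's deviation from its own group mean, which the choice of the assays did not use. Over the 40 samples 0 of the 6 pairs passed a permutation test that shuffled samples within groups, and 0 had an unadjusted p under 0.05, for Pearson's r as for Spearman's rho. The strongest value belonged to Mm00448160_m1 with Mm00484138_m1, the assays with the largest difference upwards and downwards: r = 0.50 (permutation p = 0.0687, adjusted over 6 pairs 0.412) and rho = 0.05 (permutation p = 0.751, adjusted 0.901). It rested on CEC replicate 6, without which r was -0.09 (permutation p = 0.638). With the 2 samples farthest from the median of Mm00448160_m1 left out, CEC replicates 4 and 6, it was -0.12.

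The other 5 pairs were weak. Mm00437040_m1 with Mm00484138_m1 had r = -0.22 and rho = -0.23 (permutation p = 0.215 and 0.165), Mm00448160_m1 with Mm00492427_m1 0.15 and 0.19 (p = 0.301 and 0.22), and Mm00448160_m1 with Mm00437040_m1 -0.11 and 0.14 (p = 0.543 and 0.376). Mm00437040_m1 with Mm00492427_m1 had 0.07 and -0.01 (p = 0.667 and 0.95), and Mm00484138_m1 with Mm00492427_m1 0.06 and 0.18 (p = 0.715 and 0.262). Adjusted over the 6 pairs, these values of r had permutation p of 0.601 to 0.715. With the 2 samples farthest from the median of the first-named assay of each pair left out, r ran from -0.23 to 0.19. In raw Ct, where samples with more template move all assays together, Mm00437040_m1 with Mm00492427_m1 reached r = 0.55 (permutation p adjusted 0.00324) and rho = 0.56 (adjusted 0.00396). Spearman's rho also passed for Mm00448160_m1 with Mm00492427_m1 in raw Ct, at 0.40 (adjusted 0.0419), and for Mm00437040_m1 with Mm00484138_m1 with the 10 stable assays, at -0.44 (adjusted 0.0293).

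Taken group by group, 24 pairs were examined, and after adjustment over the 24 the permutation test called 1 by Pearson's r and 0 by Spearman's rho. Among CEC samples Mm00448160_m1 and Mm00484138_m1 varied in the same direction, with r = 0.97 (permutation p adjusted 0.0125) and rho = 0.68 (adjusted 0.277), although the group means of these assays shifted in opposite directions against germ-free. Without CEC replicate 6 r was 0.83 over 9 samples (exact permutation p = 0.00771, adjusted 0.0925) and rho 0.57 (exact permutation p = 0.121, adjusted 0.646). Neither passed after adjustment. Without replicates 6 and 9, the 2 farthest from the CEC median of Mm00448160_m1, r was 0.84. In raw Ct it was 0.96, or 0.85 without replicate 6. CEC replicates 8 and 9, the next highest for Mm00448160_m1 at -1.97 and -1.76, were also the next highest for Mm00484138_m1 at -0.48 and -1.37, and replicate 4 was lowest for both, at -4.36 and -3.22.

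In the other groups this pair had r of -0.32 in germ-free, -0.18 in Nissle and -0.55 in conventional samples, and the difference between groups was not tested. Among CEC samples Mm00484138_m1 also followed Mm00492427_m1 without replicate 6, with r = 0.86 and rho = 0.90 over 9 samples (exact permutation p = 0.00337 and 0.00203, adjusted 0.0809 and 0.0487), against r = 0.34 and rho = 0.78 with it. With the 10 stable assays r was 0.81 without replicate 6 and 0.34 with it. In raw Ct r was 0.58 without replicate 6 and -0.30 with it. This relation thus depended on that sample and was weaker without normalization. Among Nissle samples Mm00448160_m1 followed Mm00492427_m1, with r = 0.70 and rho = 0.76 (permutation p = 0.0239 and 0.0150, adjusted 0.287 and 0.18). Without the 2 samples farthest from the Nissle median of Mm00448160_m1, r was 0.69. With the 10 stable assays it was 0.81, and in raw Ct, where samples with more template move all assays together, 0.88. These pairs share the median Ct of their sample, and the p-values take no account of it.

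**Figure D4:**
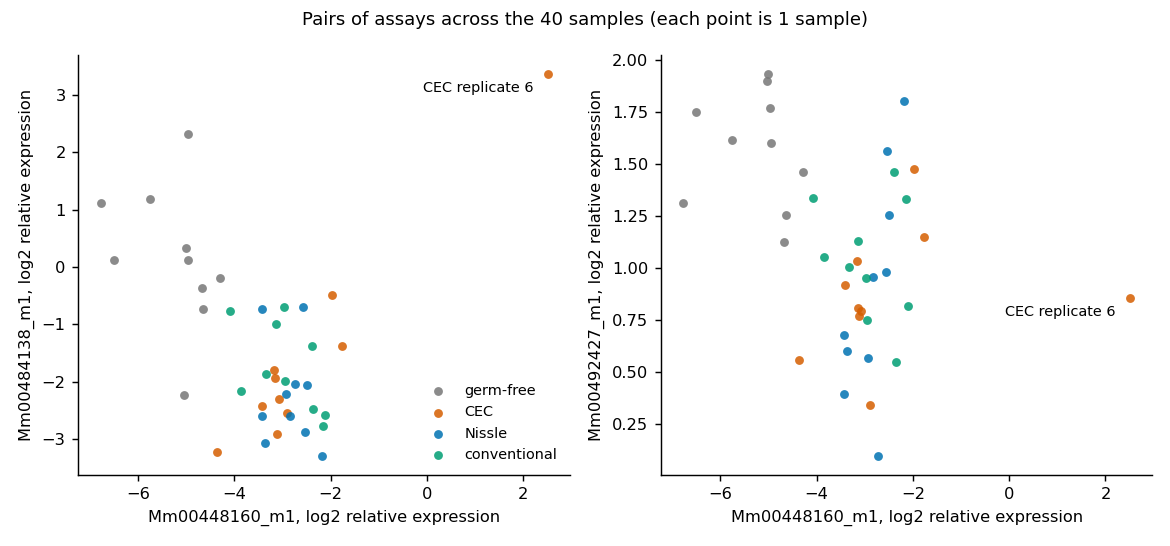
Log2 relative expression of Mm00448160_m1 (horizontal axis) against Mm00484138_m1 (left) and Mm00492427_m1 (right), each point 1 of the 40 samples, coloured by group. Along Mm00448160_m1 every Nissle and conventional sample lies above the germ-free samples, CEC replicate 4 overlaps them, and CEC replicate 6, at 2.51 and 3.36 in the left panel, lies far from the other 9 CEC samples.

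The sample median Ct moved with Mm00484138_m1 in some groups. Over deviations from group means, a sample with a higher median Ct had a higher relative expression of this assay, with r = 0.46 and rho = 0.47 (permutation p = 0.0184 and 0.00396, adjusted over the 4 assays 0.0734 and 0.0158). Without CEC replicate 6 r was 0.32 and rho 0.33 (adjusted 0.163 and 0.191), and without CEC replicates 6 and 8, the 2 samples farthest from the median, r was 0.27. Group by group r was 0.68 in CEC and 0.49 in conventional samples, but 0.13 in germ-free and 0.00089 in Nissle samples, a difference that was not tested. For the other 3 assays the pooled r was 0.35 (Mm00448160_m1), 0.18 (Mm00492427_m1) and 0.03 (Mm00437040_m1), with permutation p adjusted to 0.257, 0.376 and 0.868. Their r also varied between groups. It ran from -0.44 in conventional to 0.55 in CEC samples for Mm00448160_m1, and from -0.22 in Nissle to 0.54 in CEC for Mm00492427_m1. For Mm00437040_m1 it ran from -0.43 in conventional to 0.67 in Nissle samples. Since the median is also the term from which the assay's Ct is subtracted, part of such a relation is built in, and its part in the group differences was not tested.

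Among the other 202 assays without an undetermined well, the one most like each of the 4 in its deviations over the 40 samples is named by its r, as a description, since all assays of a sample share its RNA and its median. Mm00448160_m1 was most like Mm01195718_m1 (r = 0.76, and 0.41 without CEC replicate 6) and most unlike Mm00516972_s1 (-0.77 and -0.18). Mm00484138_m1 was most like Mm00472520_m1 (0.78 and 0.54) and most unlike Mm00449604_m1 (-0.76 and -0.46). For these 2 assays every one of these values was nearer to 0 without CEC replicate 6. Among the 202 assays Mm01195718_m1 then ranked 3 and Mm00516972_s1 37, while Mm00472520_m1 ranked 5 and Mm00449604_m1 2. None of them was thus still the most like or most unlike.

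For the other 2 assays r changed little without that sample. Mm00437040_m1 was most like Mm01265951_m1 (0.63 and 0.59) and most unlike Mm00438245_m1 (-0.68 and -0.68), and Mm00492427_m1 was most like Mm01336189_m1 (0.59 and 0.59) and most unlike Mm00772472_m1 (-0.52 and -0.52). Without CEC replicate 6 Mm01265951_m1 ranked 5 of 202, while the rest of these kept rank 1. None of the 4 assays was nearest to another of the 4. These nearest assays were not chosen for their differences to germ-free, as the 4 were, so no contrast with the 4 is drawn. Mm01265951_m1 had log2 differences to germ-free of -0.09 for CEC, 0.18 for Nissle and -0.36 for conventional mucosa (limma, adjusted p = 0.784, 0.614 and 0.259). In the same order Mm00472520_m1 had 0.02, -0.68 and -1.01 (limma, adjusted p = 0.977, 0.192 and 0.027). Mm01336189_m1 had -0.42, 0.45 and 0.12 (limma, adjusted p = 0.629, 0.612 and 0.883). Mm01195718_m1 had 2.06 for CEC and -0.17 for Nissle (limma, adjusted p = 0.143 and 0.935).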

How the data were processed

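Raw Ct values of 224 assays in 40 samples were measured by the authors on a customized TaqMan OpenArray and deposited without normalization, per the file headers and the labels' protocols. A header line describes the table as a truncated example, and assays outside it were not analysed here. The Ct threshold and any quality filter: not given in the sources used here. A Ct of 40 (405 of 8960 wells, in 21 assays) was read as undetermined. Imputation preceded deposit for 156 values (51 assays): each equalled, within 2e-06 cycles, the mean of the other values of its group, or in 3 cases of all but 1 of them. Both kinds were left missing, except that filled-in values entered the sample medians.

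Groups and replicate numbers came from the sample titles. The 4 assays, the lists and the tests were chosen with earlier results of these data known. Planned gene lists and tissue markers could not be matched to assay IDs, so the tissue was not checked by markers. Differences were fitted with limma 3.58.1 (R 4.3.3; lmFit, eBayes) in 1 fit over the 4 groups, for assays measured in at least 5 samples of both groups compared; two-sided p-values were adjusted over all assays tested (Benjamini-Hochberg, threshold 0.05). Fold is 2 to the power of the difference and assumes that each cycle multiplies the product by 2. Correlation tests were two-sided with 100000 permutations, or exact for 9 samples. The rule for named assays took the 4 assays and, for each, the assay with the highest and the lowest r. The fit was tested on simulated data. Precision is set by the 10 samples per group. Alternatives were other normalizers, handling of missing values, filters, weights, 2-group fits, a replicate block and samples left out.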

Additional observations from a re-analysis of the deposited data

Results flagged for a closer look

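Of 16 groups of 10 values (4 assays in 4 groups), 3 held a sample far from the others by Dixon's test, which chance gives in about 1 of 20 groups. CEC replicate 6 lay at 2.51 for Mm00448160_m1, with the next sample at -1.76, and at 3.36 for Mm00484138_m1, with the next at -0.48. In the same sample Mm00437040_m1 was at -4.29, the second lowest CEC value, and Mm00492427_m1 at 0.86, near the group's median. Its median Ct of 23.79 was high, but that of CEC replicate 8 was higher, at 24.27. Germ-free replicate 22 lay at -6.14 for Mm00437040_m1, with the next sample at -4.96. The response of Mm00437040_m1 against germ-free differed between colonised groups, by 0.82 for CEC against conventional samples and by 0.96 for Nissle against conventional samples (limma, adjusted p = 0.0193 and 0.00748). Neither difference passed with the 10 stable assays as normalizer (adjusted p = 0.0977 and 0.0787) or in raw Ct (adjusted p = 0.891 and 0.298).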

How the results depend on the processing

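All 12 differences to germ-free kept their sign under each of the 51 alternatives run. This is a description only, since the assays were chosen for these directions. Many of the alternatives could not move a given difference, such as leaving out a sample of a group not compared or handling missing values otherwise. The comparisons between colonised groups were less even. With the 10 stable assays as the normalizer, 0 of the 4 assays passed in CEC against conventional samples, beside 39 of 214 over the panel. In raw Ct 0 of the 4 passed in Nissle against conventional samples, beside 21 of 215. For CEC in raw Ct (panel 58 of 214) and for Nissle with the 10 stable assays (panel 55 of 215), 1 of 4 passed. There it was Mm00492427_m1 and not Mm00437040_m1. The values are given with the assays. In raw Ct 1 of the 6 pairs correlated past the threshold by Pearson's r and 2 by Spearman's rho, against 0 by either with the panel median. Leaving out any 1 sample left 0, 1 and 1 assays called in CEC against Nissle, CEC against conventional and Nissle against conventional samples, and 12 of 12 shared directions against germ-free. Over the whole panel the balance of calls turned with the normalizer: for CEC against conventional samples from 39 higher and 16 lower to 12 and 27 with the 10 stable assays, and for Nissle from 39 and 17 to 10 and 45. The median difference over all assays moved from 0.21 to -0.53 in raw Ct for CEC against conventional samples. Replicate numbers 1 to 10 are shared by the colonised groups, and whether they pair the samples is not settled. Same-numbered samples correlated above 0.1 in 1 of 10 pairs for CEC with Nissle and 3 of 10 for Nissle with conventional samples. For CEC with conventional samples 7 of 10 did, with a median r of 0.20. There the best match of a CEC sample carried its own number in 4 of 10 cases, against 1 of 10 in each of the other comparisons. With the replicate block Mm00437040_m1 differed by 0.82 and 0.96 (limma, adjusted p = 0.0181 and 0.00875), and no call changed.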
